A study of Homo sapiens with 4 samples.

Results

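The BCL2 family decides at the mitochondrial outer membrane whether a cell dies, and 10 of its genes were followed in SY5Y neuroblastoma cells given the SETD8 inhibitor SGSS05-NS. The genes were BBC3, PMAIP1, BID and BCL2L11 (BH3-only death signals), BAX and BAK1 (pore-forming effectors) and BCL2, BCL2L1, MCL1 and BCL2L2 (anti-apoptotic members). They were taken by name from the 57820 genes of the deposited table, and all 10 were among the 16468 genes that passed the filter on low counts. SY5Y is a human neuroblastoma cell line, labelled MYCN wild type. One group received the solvent DMSO and the other 3 μM SGSS05-NS as labelled, and RNA was taken after 12 h from 2 libraries per group. The study's methods name the compound SGSS05-NS3 and give a lower dose, while its description of these expression data gives the labelled dose. All libraries come from 1 cell line and 1 time point. The libraries are described as independent biological replicates. The edgeR p-values and intervals set a change against the spread between them, which the fit draws towards that of all genes. The median was 12.14 degrees of freedom, so they rest largely on spread pooled over genes.

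BH3-only proteins relay stress to the family by binding and neutralizing the anti-apoptotic members, and some also activate BAX and BAK directly. Once active, BAX and BAK form pores that release cytochrome c, which starts the caspase cascade. SETD8, the product of KMT5A, is a methyltransferase that acts on histone H4. The study reports that SGSS05-NS and related compounds also inhibit other methyltransferases at low micromolar doses. Which enzyme lies behind the changes below was not tested. Neuroblastoma cells are known to lean on BCL2 and MCL1 for survival.

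Gene totals per library were between 21463105 and 25350204 fragments. Fragments with no annotated exon on the counted strand made up 12.3% to 12.4% in DMSO and 15.3% to 16.1% in SGSS05-NS. By an adjusted p below 0.001 in edgeR's quasi-likelihood test, 6.37% of all genes tested were higher and 8.14% lower. Of 14 markers of noradrenergic neuroblastoma cells 13 were tested and 8 were lower by this rule. Their summed level was 4045 and 4295 CPM (counts divided by library size, scaled by TMM) in DMSO and 2522 and 2277 CPM in SGSS05-NS, and TH was close to 0 in every library. Of 12 markers of fibroblast, blood, endothelial and epithelial cells 11 were matched, 5 were tested and PDGFRA alone passed, with a log2 fold change of -1.10. CD3E and HBB were at 0, and the list summed to 162 to 167 CPM in DMSO and to 72.9 to 87.6 CPM in SGSS05-NS. PDGFRA made up nearly all of that sum, with 161 and 156 CPM in DMSO and 81.1 and 66.6 CPM in SGSS05-NS. Of 12 mesenchymal markers 10 were tested, 2 were higher and 1 was lower, PRRX1 was at 0, and their sum was 422.5 to 451 CPM in DMSO and 381 to 402 CPM in SGSS05-NS. The part of these shifts in the results below was not tested. In bulk RNA, fewer cells of a kind and less RNA per cell cannot be told apart.

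In SGSS05-NS, 4 of the 10 family genes were higher (BBC3, PMAIP1, MCL1 and BAX) and 1, BCL2, was lower, at an adjusted p below 0.001 in edgeR's quasi-likelihood test over all genes. Across all genes tested, 6.37% were higher, 8.14% lower and 14.5% changed in either direction by that rule. At an adjusted p below 0.05 in the same edgeR test, 6 members were higher and 1 was lower, against 22.6% and 23.7% of all genes; BCL2L11, 1 of the 6, did not keep an adjusted p below 0.05 in DESeq2 (0.056). The rises were spread over the 3 classes, with 2 of 4 BH3-only genes, 1 of 2 effectors and 1 of 4 anti-apoptotic genes. Both SGSS05-NS libraries lay above both DMSO libraries for 7 members and below them for 1, so that 8 did not overlap. Of all genes, 37.8% lay above, 36.9% below and 74.7% in either direction. The median log2 fold change over the 10 members was 0.48, and that of all genes tested was 0.01.

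**Figure D1:**
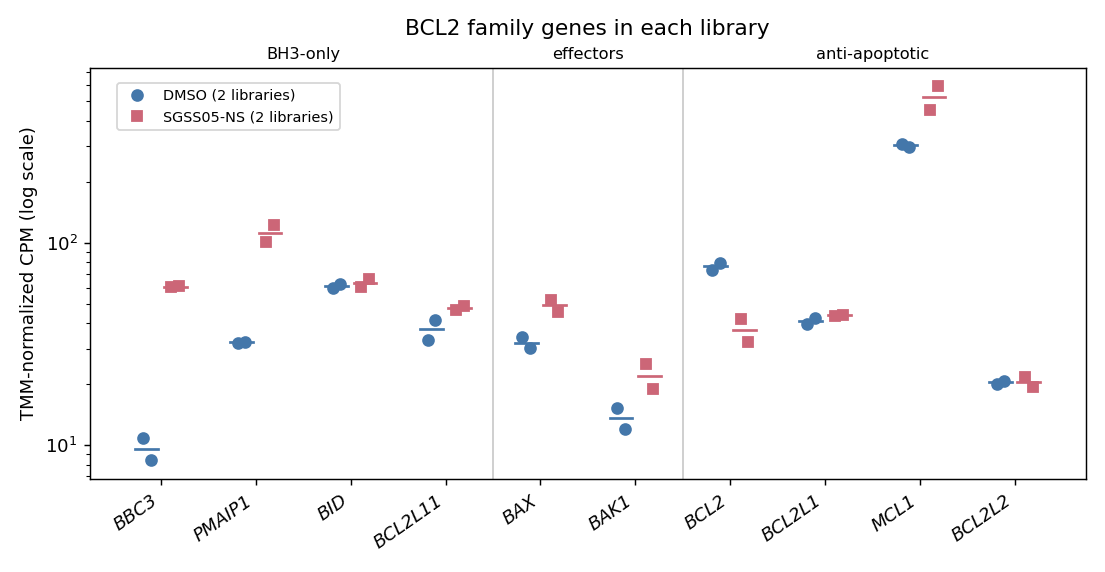
Each point is 1 library (DMSO, blue circles; SGSS05-NS, red squares), the y axis is the TMM-normalized CPM on a log scale and the short lines are group means of 2 libraries. BBC3 stands at 8.39 to 10.8 CPM in DMSO and at 60.1 to 61.1 CPM in SGSS05-NS, and BCL2 is the member whose SGSS05-NS points both lie below its DMSO points.

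BBC3, at chr19:47724079-47736023 on the minus strand of GRCh37, encodes PUMA, a BH3-only protein that binds every anti-apoptotic member. Its level was 10.8 and 8.39 CPM with DMSO, and with SGSS05-NS it was 60.1 and 61.1 CPM. The groups did not overlap, and the SGSS05-NS pair differed by less than the DMSO pair. The log2 fold change was 2.66 (SE 0.13, 95% interval 2.38 to 2.94, edgeR adjusted p = 5.8e-08), a ratio of 6.30. It ranked 22 by p among the genes that went up, and 1.62% of the genes spanning under 20 kb had a larger log2 fold change.

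PMAIP1, at chr18:57567228-57571537 on the plus strand, encodes NOXA, which binds MCL1 in preference to other anti-apoptotic members. It stood at 32.1 and 32.3 CPM in DMSO and at 101 and 123 CPM in SGSS05-NS. The DMSO libraries were nearly equal and both SGSS05-NS libraries lay far above them. The log2 fold change was 1.79 (SE 0.11, 95% interval 1.55 to 2.04, edgeR adjusted p = 3.7e-07), a ratio of 3.47. The lowest raw count was 196 for BBC3 and 754 for PMAIP1, so both rises rest on well-covered genes.

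The other BH3-only genes did not pass the test. BID, at chr22:18216904-18257536 on the minus strand, encodes a protein that caspase-8 cleaves into an active fragment. It stood at 59.8 and 62.2 CPM in DMSO and at 60.4 and 66.1 CPM in SGSS05-NS. The groups overlapped, and the log2 difference was 0.05 (SE 0.10, 95% interval -0.15 to 0.26, edgeR adjusted p = 0.68). BCL2L11, at chr2:111876955-111926021 on the plus strand, encodes BIM, an activator of BAX and BAK. It stood at 33.2 and 41.6 CPM in DMSO and at 46.6 and 48.4 CPM in SGSS05-NS. Both SGSS05-NS libraries lay above both DMSO libraries, but the DMSO pair was spread widely, and the log2 difference of 0.35 (SE 0.12, 95% interval 0.09 to 0.60) had an edgeR adjusted p of 0.029. The log2 difference was 0.18 without DMSO replicate 1 and 0.50 without DMSO replicate 2. Over the alternative fits on all 4 libraries, the adjusted p lay between 0.0086 (edgeR with a replicate block) and 0.056 (DESeq2).

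BAX, at chr19:49458072-49465055 on the plus strand, and BAK1, at chr6:33540324-33548070 on the minus strand, encode the pore formers. BAX stood at 34.1 and 30.1 CPM in DMSO and at 52.4 and 45.6 CPM in SGSS05-NS. Its groups did not overlap, and its log2 fold change was 0.61 (SE 0.11, edgeR adjusted p = 0.00095), just inside the threshold. BAX did not pass in limma voom (adjusted p = 0.0012). With each library left out, its log2 fold change lay between 0.50 and 0.71. BAK1 stood at 15.3 and 12.0 CPM in DMSO and at 25.1 and 19 CPM in SGSS05-NS. Its groups did not overlap either, and its log2 difference was 0.69 (SE 0.16, 95% interval 0.34 to 1.04, edgeR adjusted p = 0.0044), outside the threshold. BAK1 passed in edgeR's likelihood ratio test (adjusted p = 0.00027). With each library left out, its log2 difference lay between 0.47 and 0.875.

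The RefSeq promoter of BAX (GRCh38.p14, 250 bases before to 50 after the start) is shown because it holds 4 copies of the E-box CACGTG, the letters that MYC family proteins bind. Promoters of 8 of the 10 members were in the RefSeq table.
BAX promoter, chr19:48954625-48954924, plus strand, E-boxes in capitals: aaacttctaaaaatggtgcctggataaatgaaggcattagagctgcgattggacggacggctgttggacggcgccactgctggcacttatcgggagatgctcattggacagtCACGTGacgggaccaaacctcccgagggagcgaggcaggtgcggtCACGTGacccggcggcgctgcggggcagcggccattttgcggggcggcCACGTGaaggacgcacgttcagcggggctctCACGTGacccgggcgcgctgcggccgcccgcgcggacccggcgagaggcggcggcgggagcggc
The copies begin 138, 93, 45 and 14 bases before the start. An E-box was found in 3 of the 8 member promoters (BBC3, BID and BAX) and in 7.26% of 35116 promoters of that length, and 5 of those promoters held 4 or more. The E-box and other motifs were searched on both strands, and AP-1 (TGANTCA, in 7.71% of promoters) was found in BBC3. A heat shock element, the composite element of ATF4 and CHOP (TGATGNAAT), CRE (TGACGTCA) and the STAT motif TTCNNNGAA were found in no member promoter, which says only that these letters are not in these windows.

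**Figure D2:**
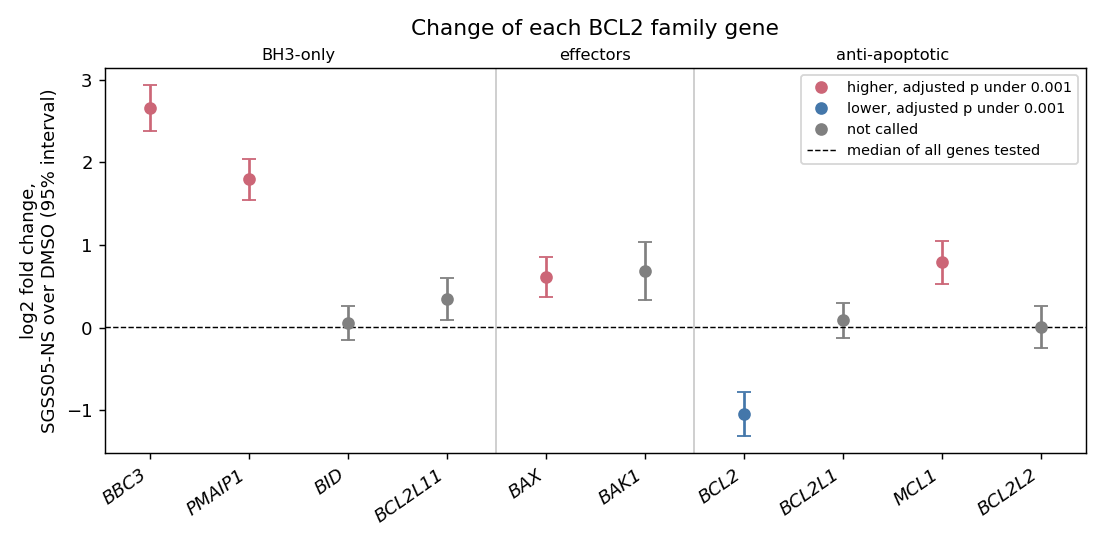
Points are log2 fold changes of SGSS05-NS over DMSO from edgeR with 95% intervals, colored by call at an adjusted p of 0.001, with a dashed line at the median of all genes tested. The interval of BBC3 runs from 2.38 to 2.94 and that of BCL2 from -1.31 to -0.78, while the intervals of BID, BCL2L1 and BCL2L2 cross 0.

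Among the anti-apoptotic genes, MCL1 and BCL2 went in opposite directions. MCL1, at chr1:150533371-150552214 on the minus strand, encodes a short-lived protein that binds NOXA. It stood at 307 and 298 CPM in DMSO and at 455 and 593 CPM in SGSS05-NS. Both SGSS05-NS libraries were higher, and they differed from each other more than the DMSO pair did. The log2 fold change was 0.79 (SE 0.12, 95% interval 0.53 to 1.05, edgeR adjusted p = 0.00026). BCL2, at chr18:60790579-60987361 on the minus strand, encodes the founding anti-apoptotic member of the family. It stood at 73.3 and 79.8 CPM in DMSO and at 41.8 and 32.4 CPM in SGSS05-NS. Every SGSS05-NS value lay below every DMSO value, and the log2 fold change was -1.05 (SE 0.12, 95% interval -1.31 to -0.78, edgeR adjusted p = 3.7e-05), a ratio of 0.485.

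BCL2L1 and BCL2L2 did not pass the test. BCL2L1, at chr20:30252255-30311792 on the minus strand, encodes BCL-XL, and stood at 39.9 and 42.6 CPM in DMSO and at 43.6 and 44.1 CPM in SGSS05-NS. Its groups did not overlap, but the log2 difference was 0.09 (SE 0.10, 95% interval -0.12 to 0.30, edgeR adjusted p = 0.48). BCL2L2, at chr14:23767999-23780960 on the plus strand, encodes BCL-W, and stood at 20.1 and 20.7 CPM in DMSO and at 21.6 and 19.4 CPM in SGSS05-NS. Its groups overlapped, with a log2 difference of 0.01 (SE 0.12, 95% interval -0.25 to 0.26, edgeR adjusted p = 0.97). In the gene annotation GENCODE 44, BCL2L2 shares 815 exon bases on the same strand with BCL2L2-PABPN1, a readthrough gene with 1, 1, 2 and 3 counts. In the same annotation, MCL1 shares 328 exon bases on the same strand with ADAMTSL4-AS1. That gene had 5 and 3 counts in DMSO and 14 and 25 in SGSS05-NS. The authors counted with GENCODE 19, whose exons can differ, and a fragment that fit both genes there was counted for neither.

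To compare genes with each other, counts were divided by the length of their merged exons (FPKM, fragments scaled by both exon length and library size). In DMSO, MCL1 had the highest level per length (47.8 to 49.4 FPKM), followed by PMAIP1, BID, BAX and BCL2L1, each apart from its neighbour. The order depends on the length used. With the longest transcript, the DMSO means of BID (24.4 FPKM) and BAX (23.6 FPKM) lay above that of PMAIP1 (16.9 FPKM). By merged exons, BAK1, BCL2 and BCL2L11 came after BCL2L1 in DMSO and overlapped between 4.92 and 6.92 FPKM. BCL2L2 and BBC3 were lowest, BBC3 at 2.63 to 3.39 FPKM. In SGSS05-NS, MCL1 (73.1 to 95.3 FPKM) and PMAIP1 (46.0 to 56.1 FPKM) were again first. BBC3 stood at 18.9 to 19.2 FPKM and overlapped BAX, and BCL2 was lowest at 2.57 to 3.32 FPKM. With the longest transcript, the SGSS05-NS mean of BAX (36.1 FPKM) lay above that of BBC3 (32.8 FPKM). The lowest member was thus BBC3 in DMSO and BCL2 in SGSS05-NS, also with the length of the longest transcript in place of merged exons. By merged exons in SGSS05-NS, BCL2L1 and BAK1 also overlapped, while the other neighbours were apart.

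**Figure D3:**
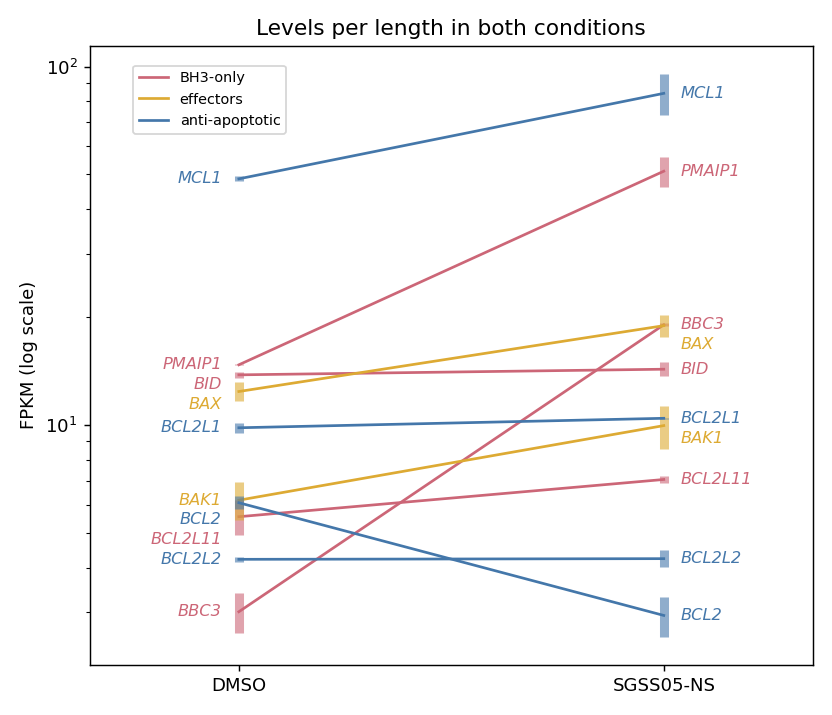
Each line joins the mean FPKM (log scale) of a gene in DMSO and in SGSS05-NS, and the thick bars span the 2 libraries of each group. BBC3 climbs from 2.63 to 3.39 FPKM to 18.9 to 19.2 FPKM, while the mean of BCL2 goes from 6.07 to 2.94 FPKM; labels that would collide are shifted down.

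MCL1 made up 70.7% ± 1.40 (SD, n = 2) of the summed FPKM of the 4 anti-apoptotic genes in DMSO and 82.5% ± 3.34 (SD, n = 2) in SGSS05-NS, and BCL2 went from 8.83% ± 0.553 to 2.96% ± 0.952. These groups of 2 did not overlap. In the 6 pro-apoptotic genes, PMAIP1 went from 26.5% ± 0.756 to 42.4% ± 4.29, BBC3 from 5.40% ± 0.830 to 15.8% ± 0.426, and BID from 24.8% ± 1.30 to 11.9% ± 0.288 (SD, n = 2 throughout). A share falls when other genes of the sum rise. The mean level of BID itself was 13.8 FPKM in DMSO and 14.3 FPKM in SGSS05-NS. The ratio of BAX to BCL2 in FPKM was 2.27 and 1.84 in DMSO and 6.10 and 6.86 in SGSS05-NS. That of PMAIP1 to MCL1, its preferred partner, was 0.297 and 0.309 in DMSO and 0.629 and 0.589 in SGSS05-NS. These are RNA ratios, and protein was not measured in these files.

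BCL2 is the longest of the members, spanning 196.8 kb. Genes that span more than 100 kb had lower values in SGSS05-NS as a class, with a median log2 fold change of -0.42 and a middle 50% from -0.79 to -0.09, and 27.8% of these 2833 genes were lower at the adjusted p used here, against 4.56% of the genes under 20 kb. Within the long class, 16.3% had a log2 fold change below that of BCL2. The 5 members under 20 kb other than BCL2L2 (BBC3, PMAIP1, BAX, BAK1 and MCL1) all lay above the third quartile of their class, 0.56. Whether the span has a part in the change of BCL2 was not tested.

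**Figure D4:**
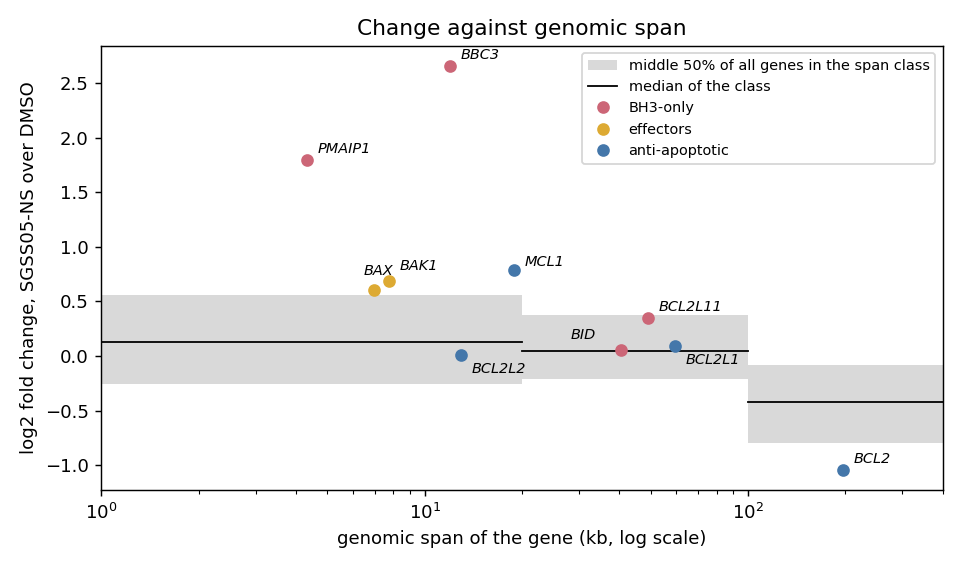
Points are the members, with genomic span in kb on a log x axis and log2 fold change on the y axis; grey boxes hold the middle 50% of all genes in 3 span classes and black lines their medians. BCL2, at 196.8 kb, lies below the box of the genes over 100 kb, and BBC3 and PMAIP1 lie far above the box of the genes under 20 kb.

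The fragments on the opposite strand of BBC3 were also counted, since the libraries keep the strand. They numbered 2 and 2 with DMSO, and with SGSS05-NS they numbered 60 and 61, or 0.733% and 1.01% against 4.30% and 4.07% of the fragments over the gene on both strands. All SGSS05-NS values lay above all DMSO values. The log2 fold change was 4.63 (SE 0.46, edgeR adjusted p = 1.4e-07 over 7200 genes tested on that strand, of which 3.67% were higher and 5.76% lower), a scaled ratio of 26.1 with an exact binomial 95% interval of 9.94 to 97.3 that covers counting error only. On the strand of the gene itself the ratio was 6.30. MIR3191, a microRNA gene annotated inside BBC3 on the opposite strand (chr19:47730199-47730278, plus), had 0 and 0 counts in DMSO and 17 and 19 in SGSS05-NS, and a fragment there is counted for MIR3191 in the main strand column and for BBC3 in the opposite one. SAE1, the nearest protein-coding gene on that strand below BBC3, ends 10.2 kb away and stood at 228 and 209 CPM in DMSO and 201 and 216 CPM in SGSS05-NS, with overlapping groups. BID, BCL2L11 and BCL2L2 had enough opposite-strand fragments to be tested, and 0 passed, with unadjusted p-values of 0.97, 0.086 and 0.11 in edgeR and adjusted p-values of 0.98, 0.17 and 0.22.

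**Figure D5:**
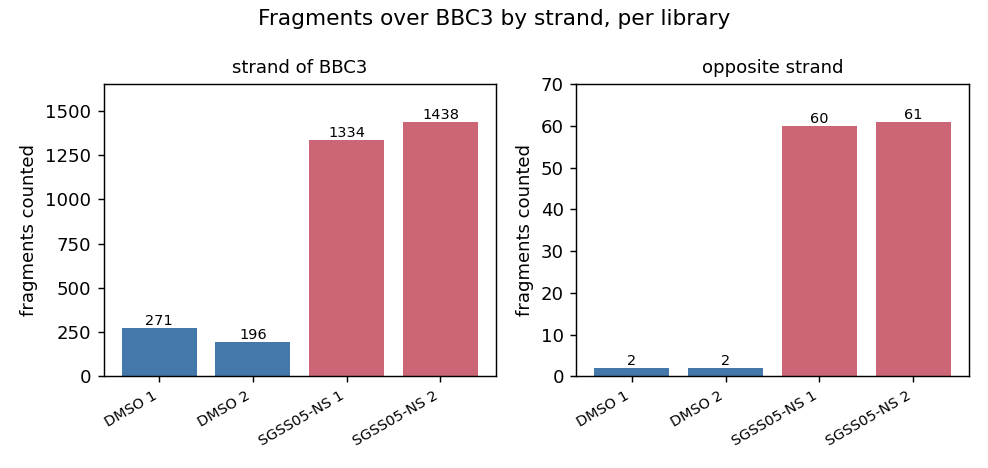
Bars are fragments counted over BBC3 in each library, on the strand of the gene (left) and on the opposite strand (right), each on an axis of its own from 0. The opposite strand has 2 fragments in each DMSO library and 60 and 61 in the SGSS05-NS libraries.

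The rest of the pathway was read from lists. Of 13 further BCL2 family genes 9 were tested and 0 passed the threshold in edgeR's quasi-likelihood test, in DESeq2 or in limma voom. In edgeR's likelihood ratio test 1 passed, as did 1 with a replicate block and 1 of 13 with no filter on low counts. At an unadjusted p below 0.05 in the quasi-likelihood test, 5 of the 9 were higher and 1 was lower, against 26.5% and 27% of all genes. Their median log2 fold change was 0.37. BNIP3, a BH3-like protein tied to mitophagy, had the smallest adjusted p, with a log2 difference of 0.38 (edgeR adjusted p = 0.0066), followed by BOK, a relative of BAX, with 0.81 (adjusted p = 0.0081). Among 17 tested genes that act after or beside the pore, 1 was higher and 1 lower, against 6.37% and 8.14% of all genes. AIFM1, a mitochondrial flavoprotein, was lower with a log2 fold change of -0.60 (edgeR adjusted p = 0.00075). APAF1, which binds cytochrome c, had a log2 difference of -0.62 and an edgeR adjusted p of 0.0048. The median log2 fold change of the 17 genes was -0.04.

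Of 13 tested genes whose products act on BCL2 family proteins, 2 were higher and 2 lower, against 6.37% and 8.14% of all genes. Their median log2 fold change was -0.04. FBXW7, part of a ubiquitin ligase that marks MCL1 for breakdown, was higher with a log2 fold change of 0.75 (edgeR adjusted p = 6.7e-05), and BAG1, a partner of BCL2, was higher with 0.71 (adjusted p = 0.00062). BTRC, a subunit of another ligase that acts on MCL1, was lower with -0.91 (edgeR adjusted p = 0.00018), and GSK3B, a kinase that phosphorylates MCL1, was lower with -0.92 (adjusted p = 0.00021). BTRC (203.3 kb) and GSK3B (273.7 kb) span more than 100 kb, the class in which 27.8% of genes were lower. FBXW7, which was higher, spans 215.5 kb. A part of span in these changes was not tested. Of 13 tested transcription factors known to act on family genes, 4 were higher and 2 lower, against the same 6.37% and 8.14%. Their median log2 fold change was 0.22. DDIT3 (CHOP), the stress factor that acts on BH3-only genes, stood at 2.75 and 2.83 CPM in DMSO and 58.6 and 77.7 CPM in SGSS05-NS, with a log2 fold change of 4.61 (edgeR adjusted p = 5.2e-09). JUN was higher with 2.54 (edgeR adjusted p = 3.5e-06) and ATF4 with 0.69 (adjusted p = 0.00017). MYC was lower with -1.09 (edgeR adjusted p = 4.6e-05) and MYCN with -1.43 (adjusted p = 0.00023), MYCN standing at 6.22 and 6.76 CPM in DMSO and 1.98 and 2.81 CPM in SGSS05-NS.

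KMT5A, which encodes the enzyme the compound inhibits, stood at 54.6 and 56.8 CPM in DMSO and at 82.8 and 83.0 CPM in SGSS05-NS, with a log2 fold change of 0.57 (SE 0.09, edgeR adjusted p = 0.00037). Its RNA is no check of inhibition.

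The genes whose log2 CPM over the 4 libraries, centred on the gene's own mean, lay nearest to a member in Euclidean distance were listed for BBC3, PMAIP1 and MCL1. With 2 libraries per group, such nearness mostly picks genes with a like fold change. Nearest to BBC3 were FGFR3 (distance 0.175, 0.514 CPM in DMSO), ZNF473CR (0.200, 0.02 CPM in DMSO) and HSPB1 (0.201), a small heat shock protein gene with a log2 fold change of 2.72. Nearest to PMAIP1 were DUSP3, FILIP1L and CREB5, with log2 fold changes from 1.79 to 1.91. Nearest to MCL1 were ADPRM, SDE2 and ITGA2B (0.928 CPM in DMSO), with log2 fold changes of 0.78 to 0.80.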

How the data were processed

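RNA-seq was measured in 4 libraries of SY5Y cells (2 DMSO, 2 SGSS05-NS). Per the labels, Trimmomatic 0.30 and STAR 2.4.2a with the hg19 genome were the authors' tools; they deposited unnormalized fragment counts for each gene, unstranded and by strand. The reverse-strand counts were used, since the opposite strand held 4.64% to 5.05%. The 4 summary rows, 37.3% to 38.8% of each library, were left out. Gene symbols were matched by identifier (GENCODE 44 on GRCh37, 55538 of 57820), and promoters came from RefSeq. Exon lengths, spans and overlaps also came from GENCODE 44, while the study's methods give GENCODE 19 for the counts.

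Genes were filtered with filterByExpr, scaled with TMM and tested with edgeR 4.0.16's quasi-likelihood test in R 4.3.3, with Benjamini-Hochberg adjustment over 16468 genes and a threshold of 0.001. The SE is the log2 fold change divided by the square root of F. In simulated data 63% of 2-fold and 82% of 4-fold changes were recovered, with 0 false calls, over 16063 genes. Replicates differed beyond counting noise (chi-square per degree of freedom 8.76 and 11.8). Alternatives were limma voom (limma 3.58.1), DESeq2 1.42.0, the likelihood ratio test of edgeR, other scalings, filters, strands and thresholds, a replicate block and each library left out.

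The members and lists were chosen with earlier results of these data known. The named genes are the members, list genes past the threshold, the 3 genes nearest to BBC3, PMAIP1 and MCL1, KMT5A and genes overlapping a member; others named were chosen after their values were seen. No columns held the authors' comparisons. The results of some items chosen by this rule are not reported here.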

Additional observations from a re-analysis of the deposited data

Results flagged for a closer look

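The fragments on the opposite strand of BBC3 were outside the main measurement and rose in SGSS05-NS above the level in the DMSO libraries. The log2 fold change was 4.63 (SE 0.46, edgeR adjusted p = 1.4e-07), with 2 and 2 fragments in DMSO and 60 and 61 in SGSS05-NS. Under 3 other fits, chosen after seeing the data, it stayed higher and past the threshold. With each library left out, also chosen after seeing the data, the log2 fold change was 4.52 to 4.66.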

How the results depend on the processing

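The calls of BBC3, PMAIP1, MCL1 and BCL2 held under every alternative fit on all 4 libraries. Over the other fits and over the fits that left out 1 library, respectively, the log2 fold change was 2.63 to 2.69 and 2.47 to 2.84 for BBC3, 1.76 to 1.82 and 1.64 to 1.92 for PMAIP1, 0.75 to 0.82 and 0.59 to 0.96 for MCL1, and -1.08 to -1.01 and -1.25 to -0.87 for BCL2. Between 3 and 6 members were higher and 1 was lower over the fits and thresholds on all 4 libraries. BAX lost its call with limma voom, with library sizes alone and with unstranded counts. BAK1 gained one with the likelihood ratio test, with no filter, with the replicate block and at the looser thresholds. BID lay between -0.0127 (without SGSS05-NS replicate 2) and 0.1084 with each library left out. BCL2L2 was -0.0211 with no filter and -0.0282 with unstranded counts, and lay between -0.082 (without SGSS05-NS replicate 1) and 0.0836 with each library left out, at -0.0243 without DMSO replicate 1; neither gene was called. A lone library left in a group was assumed to vary like the others, so only log2 fold changes are given for those fits.

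Of the other listed pathway genes (9, 17, 13 and 13 tested by list), 7 were higher and 5 lower, against 6.37% and 8.14% of all genes tested. The higher count became 11 with no filter, 11 with the replicate block and 4 with unstranded counts. The lower count became 9 with the likelihood ratio test, 9 with DESeq2 and 12 with no filter. At an adjusted p below 0.05 in the main edgeR fit, 18 were higher and 13 lower, against 22.6% and 23.7% of all genes. Below 0.01 they were 13 and 12, a threshold at which the share of all genes was not computed. Counts with a library left out are not given, since a lone library shows no spread. Over all genes, 1049 higher and 1341 lower became 2022 and 2267 with the likelihood ratio test and 2034 and 2570 with no filter. They became 1759 and 2007 with the replicate block, 954 and 1414 with unstranded counts and 1142 and 1598 with DESeq2. Same-numbered libraries shared little over all genes (r = 0.05 over 2 pairs), so the main fit took the numbers as names. That correlation is over genes and does not settle pairing for a single gene. BAK1 was called with the replicate block. With the longest transcript as length, PMAIP1 made up 20.3% of the pro-apoptotic FPKM in DMSO and 34.1% in SGSS05-NS and BBC3 19.1% in SGSS05-NS, and 6 members changed place in the DMSO order and 2 in the SGSS05-NS order. The opposite strand of BBC3 gave 4.63 to 4.92 in the other fits and 4.52 to 4.66 with each library left out. The causes of these shifts were not tested. With 2 libraries per group, changes of 2-fold were recovered in part only in simulated data.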
